A study of Mus musculus with 4 samples.

Results

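The immediate early genes described here were 10 genes named by symbol: the AP-1 subunits Fos, Fosb, Fosl2, Jun and Junb, the zinc-finger factors Egr1 and Egr2, the nuclear receptor Nr4a1 and the phosphatases Dusp1 and Dusp10. They were taken as every probe set annotated to exactly 1 of these symbols, which gave 14 probe sets of 45037, and 10 of the 17097 genes that could be named. The symbols were chosen on the log2 differences between these same knockout and wild-type arrays, so the members' differences are described and not tested. RNA of intact inguinal mammary gland, taken 10 days after birth, was measured on 4 Affymetrix arrays, 2 from Mt2-mmp(-/-) mice (KO 1 and KO 2), which lack the membrane-anchored metalloproteinase Mmp15 in all tissues, and 2 from Mt2-mmp(+/+) littermates (WT 1 and WT 2). Mice of both genotypes had a congenic C57Bl/6J background. Arrays are labelled as biological replicates, but the labels leave out how many mice stand behind each, their sex and which part of the gene was deleted. Mmp15 itself was not analysed here.

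Immediate early genes are transcribed within minutes of a stimulus, without new protein synthesis, when growth factor, calcium or stress signals reach factors already bound at their promoters, such as SRF with its ternary complex partners, and CREB. Fos and Jun proteins pair through leucine zippers to form AP-1, which binds DNA and acts on later genes, among them some matrix proteinases. Dual-specificity phosphatases made in the same wave switch the MAP kinases off again. Their RNAs are short-lived, and tissue dissection is itself a known stimulus.

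The 250 bases before the start of 9 of the 10 genes, all but Egr1, were in the RefSeq promoter table (GRCm38.p6). Of these 7 are shown because their genes carry the pattern described below, with Egr2 as the member that went the other way. Capitals mark the CRE half-site TGACG or its reverse complement CGTCA, the full CRE TGACGTCA that contains it, the related octamer TGACATCA and the CArG box, the sequence SRF binds. Each line runs 5′ to 3′ along the gene's strand.
Fos, chr12:85473640-85473889, plus strand: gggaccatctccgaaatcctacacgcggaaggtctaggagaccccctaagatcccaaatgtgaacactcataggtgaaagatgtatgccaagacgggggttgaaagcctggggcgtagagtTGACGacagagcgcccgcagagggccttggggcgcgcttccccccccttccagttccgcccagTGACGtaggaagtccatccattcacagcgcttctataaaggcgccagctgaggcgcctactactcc
Jun, chr4:95052223-95052472, minus strand: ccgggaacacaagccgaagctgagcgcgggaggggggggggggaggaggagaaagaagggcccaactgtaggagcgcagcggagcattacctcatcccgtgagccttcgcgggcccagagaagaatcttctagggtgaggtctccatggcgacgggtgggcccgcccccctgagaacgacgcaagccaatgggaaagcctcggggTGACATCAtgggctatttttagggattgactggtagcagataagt
Junb, chr8:84978749-84978998, minus strand: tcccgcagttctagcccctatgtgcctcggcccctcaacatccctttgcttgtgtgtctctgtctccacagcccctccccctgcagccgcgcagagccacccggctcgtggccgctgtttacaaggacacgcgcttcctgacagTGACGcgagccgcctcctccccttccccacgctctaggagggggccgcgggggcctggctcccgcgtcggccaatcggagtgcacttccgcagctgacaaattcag
Egr2, chr10:67537619-67537868, plus strand: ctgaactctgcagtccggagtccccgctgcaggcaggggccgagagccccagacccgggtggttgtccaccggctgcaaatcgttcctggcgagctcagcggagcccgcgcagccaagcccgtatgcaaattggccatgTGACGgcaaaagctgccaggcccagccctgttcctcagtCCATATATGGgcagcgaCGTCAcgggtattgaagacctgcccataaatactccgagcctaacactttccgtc
Nr4a1, chr15:101266596-101266845, plus strand: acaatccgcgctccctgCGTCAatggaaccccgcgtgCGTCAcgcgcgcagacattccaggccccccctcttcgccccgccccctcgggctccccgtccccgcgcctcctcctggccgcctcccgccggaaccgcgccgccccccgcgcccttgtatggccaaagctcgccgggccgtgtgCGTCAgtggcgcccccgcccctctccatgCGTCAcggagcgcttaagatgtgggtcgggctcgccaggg
Dusp1, chr17:26508473-26508722, minus strand: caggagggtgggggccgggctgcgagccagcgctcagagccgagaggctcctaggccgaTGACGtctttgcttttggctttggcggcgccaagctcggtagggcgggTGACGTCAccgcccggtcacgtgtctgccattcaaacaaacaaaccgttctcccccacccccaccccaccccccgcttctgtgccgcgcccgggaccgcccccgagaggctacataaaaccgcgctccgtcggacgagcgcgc
Dusp10, chr1:184034131-184034380, plus strand: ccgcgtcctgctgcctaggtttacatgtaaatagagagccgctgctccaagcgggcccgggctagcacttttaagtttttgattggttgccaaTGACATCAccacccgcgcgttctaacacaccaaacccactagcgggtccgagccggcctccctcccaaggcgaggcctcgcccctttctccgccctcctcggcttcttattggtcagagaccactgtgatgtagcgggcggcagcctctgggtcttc

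The half-site TGACG, searched on both strands, was in the window of 6 of the 9 genes (Fos, Fosb, Junb, Egr2, Nr4a1 and Dusp1), against 17.8% of all 32851 promoter windows of that length. Nr4a1 held 4 copies, all as CGTCA, between 233 and 36 bases before the start. Dusp1 held the full site TGACGTCA, at 143 to 136 bases before the start, which was in 1.55% of all windows. Jun and Dusp10 instead held TGACATCA, at 45 to 38 and 157 to 150 bases before the start, an octamer found in 2.93% of all windows. The CArG box was in windows of Egr2, which has 5 in the table, and in 1.47% of all windows. Egr1 had no window and was not searched for any motif, and no gene was searched beyond its windows. The AP-1 site TGANTCA was in none of the members' windows and in 6.75% of all windows, and the EGR site GCGNGGGCG was in those of Fosb, Fosl2 and Nr4a1 and in 4.7% of all. The motifs were picked as known sites of this gene class, and a match describes letters in the window and not a bound factor.

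Values are on the log2 scale that RMA gives, as the authors deposited them. The arrays matched the labelled tissue: the luminal keratins Krt8 and Krt18 lay between 9.01 and 9.47, the basal keratin Krt14 between 7.87 and 8.22, the adipocyte hormone Adipoq between 13.14 and 13.26 and the collagen Col1a1 between 12.02 and 12.29. The arrays were not alike in other tissue, however. Over 11 epidermal and hair follicle genes the summed linear signal was 6308 in KO 1 and 535 in KO 2, against 607 in WT 1 and 5524 in WT 2. Trichohyalin (Tchh), a hair follicle protein, was at 10.74 in KO 1 and 3.49 in KO 2, against 4.03 in WT 1 and 10.37 in WT 2. Not every gene of the list followed. The epidermal keratin Krt10 was at 7.16 in KO 1 and 7.22 in KO 2, against 7.20 in WT 1 and 7.17 in WT 2. Krt1, Lor and Flg were low and varied little too. KO 1 and WT 2 therefore stood apart from KO 2 and WT 1, across genotype, and results are given within each of these pairs too. Across genes KO 2 correlated best with WT 1 (r = 0.9974) and KO 1 with WT 2 (r = 0.9957), while the correlation within a genotype was 0.9948 for KO and 0.9946 for WT.

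Among the 10 genes 8 lay higher in knockouts and 2 lower, with a median log2 difference of 0.39, against -0.002 over all genes. Over all genes 48.8% lay higher in knockouts. The range was -0.16 for Egr2 to 0.74 for Egr1, and 6 members differed by at least 0.3, as did 2.07% of all genes. No member passed an adjusted p of 0.05 by limma, a threshold that 0.00585% of all genes passed (1 gene, Gadd45gip1), and 5 members had an unadjusted p under 0.05, all of them higher in knockouts, against 7.01% of all genes in either direction and 3.63% higher in knockouts. Both knockout arrays lay above both wild-type arrays in 8 members, against 18.2% of all genes, and below them in 1 member, against 19.4% of all genes. Because the genes were chosen with this contrast in view, nothing is read from these counts. In bulk tissue fewer cells of a type and less RNA per cell cannot be told apart. KO 2 held the highest value in 7 of the 10 genes and the lowest in 2, Fosb and Egr2, and WT 1 held the lowest in 5. Without KO 2 the median difference of the 10 genes was 0.21, and without KO 1 it was 0.52.

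**Figure D1:**
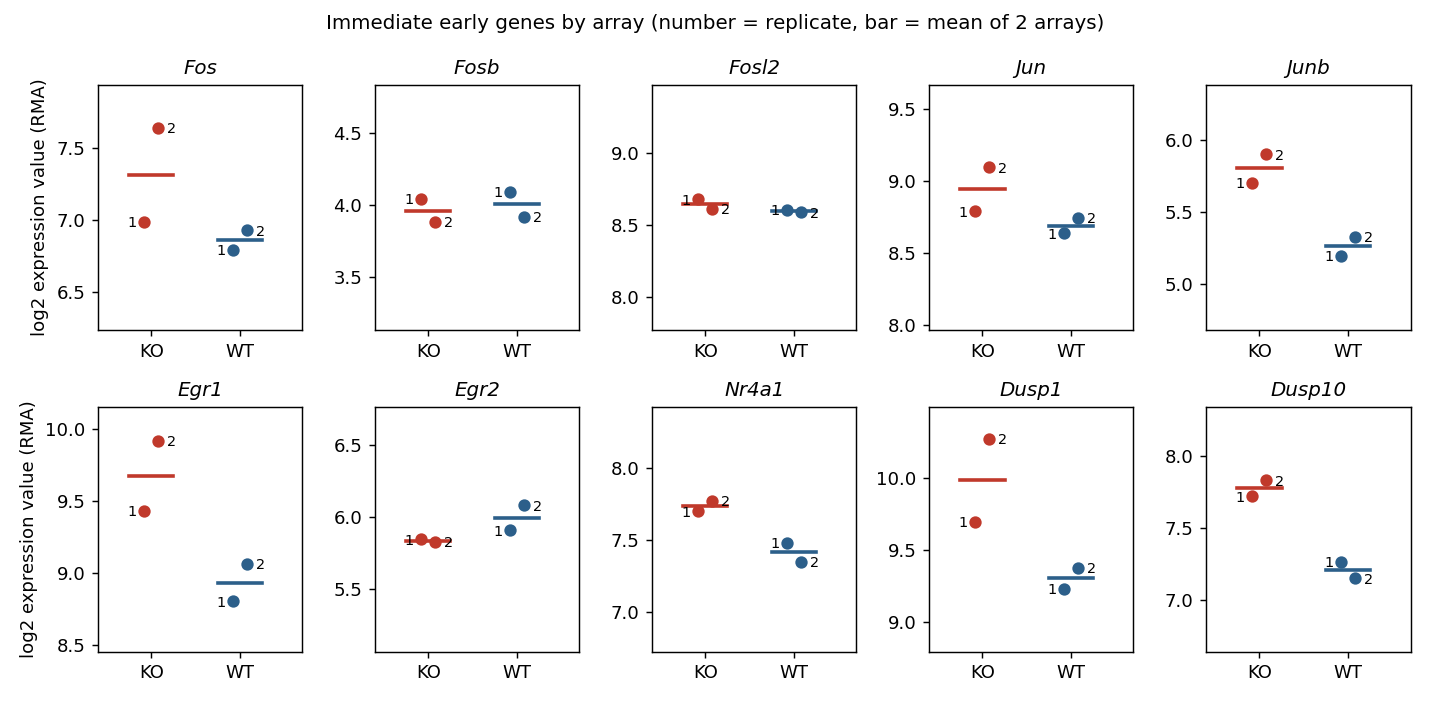
Log2 expression value (RMA, vertical axis) of each of the 10 genes in the 2 KO arrays (left, red) and the 2 WT arrays (right, blue); points carry the replicate number, bars are means of 2 arrays, and every panel spans the same log2 range around its own mean. KO 2 is the highest point in 7 panels, and Egr2 is the gene whose KO points both lie below its WT points.

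Of the Fos subunits, which pair only with partners such as Jun proteins, Fos itself had log2 values of 6.99 and 7.64 in KO 1 and KO 2, against 6.80 and 6.93 in WT 1 and WT 2. The KO arrays lay above the WT arrays, but KO 1 was only just above WT 2 and the gap between the KO arrays was wider than that between the genotypes. Mean log2 values were 7.32 ± 0.460 for KO and 6.86 ± 0.0955 for WT (SD, n = 2 each), a difference of 0.45 (SE 0.220), or 1.37-fold. It was 0.13 without KO 2 and 0.78 without KO 1. Fosb, a close relative of Fos that is strongly induced in neurons, had 4.04 and 3.88 in KO 1 and KO 2, against 4.09 and 3.92 in WT 1 and WT 2. The genotypes overlapped, and the values lay near the median of the 23 nonspecific control probe sets (3.26 to 3.28 by array). The Fosb difference of -0.04 (SE 0.098) turned to 0.04 without KO 2 or without WT 1. Fosl2 encodes Fra-2, a Fos protein that appears later and stays longer than Fos, and had 8.68 and 8.61 in KO 1 and KO 2, against 8.60 and 8.58 in WT 1 and WT 2. The 4 arrays were almost level, with a difference of 0.05 (SE 0.0660), 0.02 without KO 1 and 0.08 without KO 2, and the dimmer probe set of Fosl2 also gave 0.05 (SE 0.115) with overlapping genotypes.

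Jun, the AP-1 subunit that can pair with itself as well as with Fos, had log2 values of 8.79 and 9.10 in KO 1 and KO 2, against 8.64 and 8.74 in WT 1 and WT 2. As for Fos, KO 1 lay close to WT 2 and KO 2 stood above the other 3 arrays. The difference was 0.25 (SE 0.12), 0.10 without KO 2 and 0.41 without KO 1. The second Jun probe set had 7.65 and 8.26 in knockouts against 7.53 and 7.55 in wild type, a difference of 0.42 (SE 0.196) that again came mostly from KO 2. Junb, a Jun protein that activates transcription less strongly and can oppose Jun at some sites, had 5.70 and 5.90 in KO 1 and KO 2, against 5.20 and 5.33 in WT 1 and WT 2. Here the genotypes were apart by more than either pair of replicates, with means of 5.80 ± 0.139 for KO and 5.26 ± 0.0940 for WT (SD, n = 2 each), a difference of 0.54 (SE 0.098), or 1.45-fold. Leaving out an array kept the Junb difference between 0.44 and 0.64. Its values lay above the median of the nonspecific controls but below the brightest of them (6.782 to 6.955 by array).

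Egr1, a zinc-finger transcription factor induced through SRF, had the widest difference of the 10 genes: 9.43 and 9.92 in KO 1 and KO 2, against 8.81 and 9.06 in WT 1 and WT 2. The genotypes did not overlap. Its mean was 9.68 ± 0.343 for KO and 8.94 ± 0.183 for WT (SD, n = 2 each), a difference of 0.74 (SE 0.185), or 1.67-fold, and 0.50 without KO 2. Egr2, a relative best known from Schwann cells and hindbrain, had 5.84 and 5.83 in KO 1 and KO 2, against 5.91 and 6.08 in WT 1 and WT 2. It was the member whose knockout arrays both lay below wild type, with a difference of -0.16 (SE 0.083), and its second probe set gave -0.19 (SE 0.078) with 5.11 and 5.02 in knockouts against 5.30 and 5.20 in wild type. The Egr2 difference was -0.07 without WT 2 and -0.24 without WT 1. Nr4a1, an orphan nuclear receptor also called Nur77, had 7.70 and 7.77 in KO 1 and KO 2, against 7.48 and 7.35 in WT 1 and WT 2. Replicates of Nr4a1 lay close together in both genotypes, and the difference was 0.32 (SE 0.078), or 1.25-fold, with a range of 0.26 to 0.39 when an array was left out.

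Dusp1, a nuclear phosphatase that inactivates p38, JNK and ERK kinases, had log2 values of 9.69 and 10.27 in KO 1 and KO 2, against 9.23 and 9.38 in WT 1 and WT 2. The genotypes did not overlap, and KO 2 was again well above KO 1. The Dusp1 mean was 9.98 ± 0.408 for KO and 9.30 ± 0.104 for WT (SD, n = 2 each), a difference of 0.68 (SE 0.199), or 1.60-fold, and 0.39 without KO 2. Dusp10, a phosphatase with a preference for p38 and JNK, had 7.72 and 7.83 in KO 1 and KO 2, against 7.27 and 7.15 in WT 1 and WT 2. With means of 7.78 ± 0.0796 for KO and 7.21 ± 0.0816 for WT (SD, n = 2 each), Dusp10 had the smallest replicate spread among the members that differed by more than 0.5, and its difference was 0.57 (SE 0.081), or 1.48-fold. Its dimmer probe set had 4.50 and 4.46 in knockouts against 4.21 and 4.20 in wild type, a difference of 0.27 (SE 0.067) that also left the genotypes apart. These dimmer values lay below the brightest nonspecific controls. The mean of both Dusp10 probe sets gave 0.42.

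**Figure D2:**
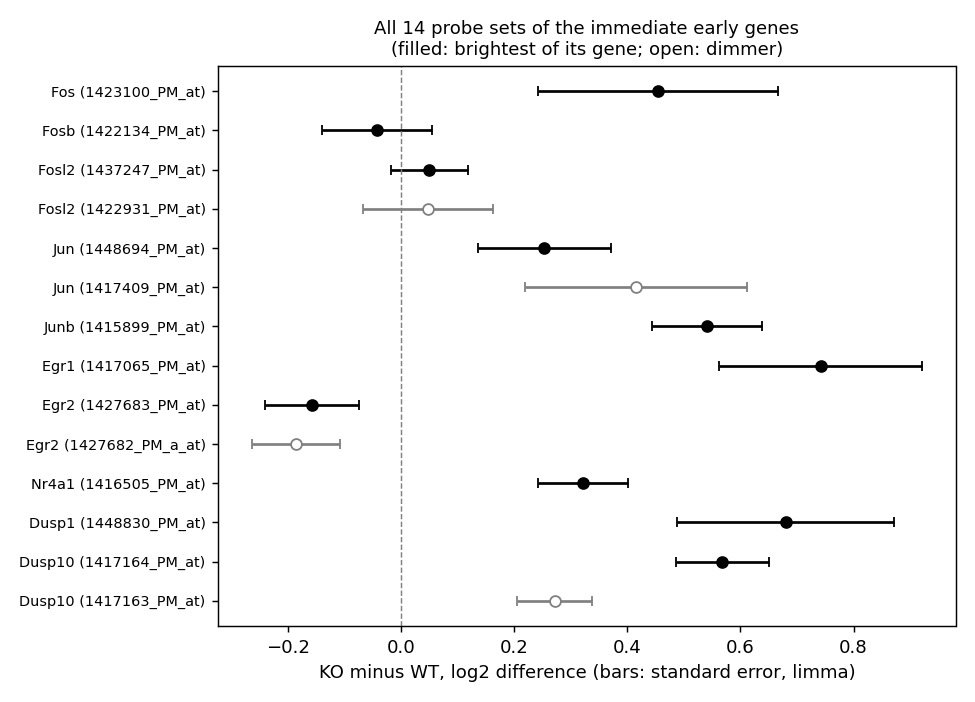
KO minus WT log2 difference (horizontal axis) of all 14 probe sets, with standard errors from limma over every probe set; filled points are the brightest probe set of a gene and open points the dimmer ones. Probe sets of 1 gene lie on the same side of 0 for Fosl2, Jun, Egr2 and Dusp10, and the Dusp10 pair differs in size, 0.57 against 0.27.

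The pairs of arrays with like hair follicle signal split the members further. With 1 array a side these are values with no test. Between KO 2 and WT 1, the pair low in hair keratins, the log2 difference was 1.11 for Egr1, 1.04 for Dusp1, 0.85 for Fos, 0.71 for Junb and 0.46 for Jun. Between KO 1 and WT 2, the pair high in hair keratins, it was 0.37 for Egr1, 0.32 for Dusp1, 0.06 for Fos, 0.38 for Junb and 0.05 for Jun. Dusp10 had the same difference in either pair, 0.57 and 0.57, and Nr4a1 nearly so, with 0.29 in the low pair and 0.35 in the high pair. Fosb had opposite signs, with -0.21 in the low pair and 0.13 in the high pair. Egr2 lay below wild type in either pair, with -0.08 in the low pair and -0.24 in the high pair.

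**Figure D3:**
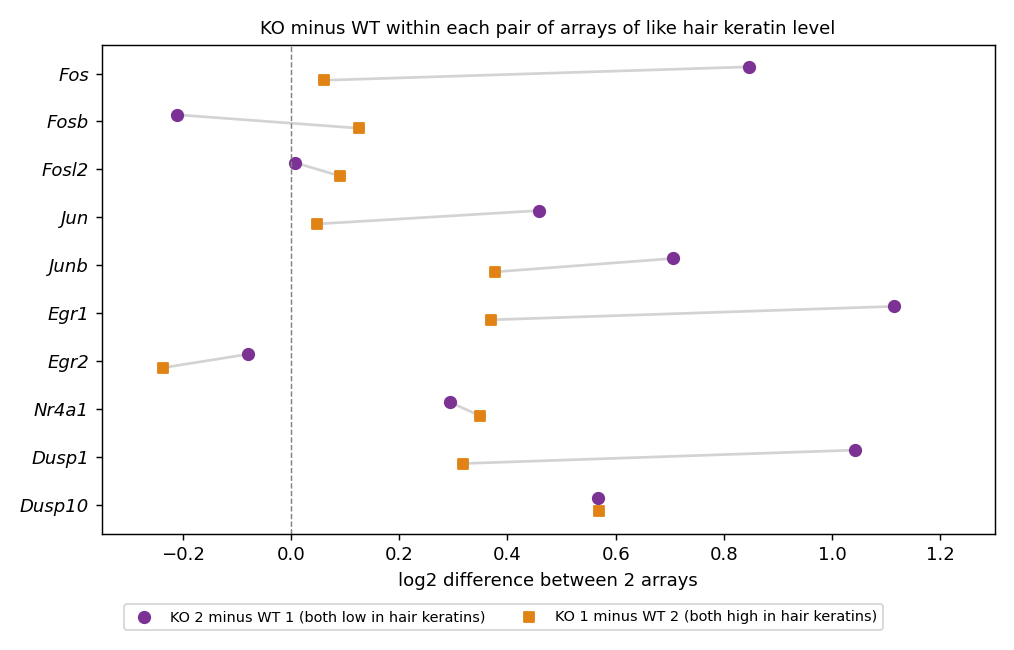
Log2 difference between a KO and a WT array (horizontal axis) within the pair KO 2 and WT 1 (circles) and the pair KO 1 and WT 2 (squares), for each of the 10 genes. The circles of Fos, Jun, Egr1 and Dusp1 lie far to the right of their squares, while the circle and square of Dusp10 and Nr4a1 nearly coincide.

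In hair genes KO 2 was like WT 1, but in some lists of other tissues KO 2 stood out. Over 11 skeletal muscle genes the summed linear signal was 1073 in KO 1 and 1571 in KO 2, against 1166 in WT 1 and 936 in WT 2, and the skeletal actin Acta1 was at 7.39 in KO 2, against 4.74 in KO 1, 5.67 in WT 1 and 4.86 in WT 2. Acta1 and Myh4 were chosen as the muscle genes that stood out in KO 2. The fast myosin Myh4 had 5.28 in KO 2 and 3.38 to 3.70 in the other 3 arrays. Over 10 endothelial genes the sum was 6712 in KO 1 and 7720 in KO 2, against 6770 in WT 1 and 6341 in WT 2, with 9 of 10 higher in knockouts (median 0.16). The same sum over the 10 immediate early genes was 3044 in KO 1 and 3921 in KO 2, against 2393 in WT 1 and 2563 in WT 2. Brown and beige fat genes had a different order, with 15612 in KO 1 and 11720 in KO 2, against 8373 in WT 1 and 8075 in WT 2, and 9 of 9 members higher in knockouts (median 0.76). Luminal genes had 3944 and 3631 in knockouts against 4596 and 4359 in wild type, and macrophage and neutrophil genes 4942 and 5313 against 5930 and 5540. Luminal genes lay higher in 1 of 13 (median -0.20), basal genes in 0 of 10 (median -0.20) and macrophage and neutrophil genes in 0 of 11 (median -0.10). Sums of fibroblast genes (35743 and 36684 in knockouts, 35540 and 33143 in wild type), white adipocyte genes (42201 and 45857, against 44640 and 43824) and lymphocyte genes (344 and 351, against 315 and 331) differed less. Single genes in these lists differed more, among them the adipocyte hormone leptin (Lep), with 8.15 and 8.16 in knockouts against 6.72 and 5.20 in wild type, and the B cell genes Ms4a1 (0.76, SE 0.166) and Cd79b (0.50, SE 0.151). The white adipocyte and lymphocyte lists each held 2 genes at an unadjusted p under 0.05 by limma, both higher in knockouts. The brown and beige list held 7 and the endothelial list 1, also higher, against 3.63% of all genes. Lower in knockouts at that p were 4 luminal, 3 basal and 4 macrophage and neutrophil genes, against 3.38% of all genes. The fibroblast, skeletal muscle and epidermal and hair lists held 0. RMA gives no value of 0. Tchh in KO 2 and Myh4 in KO 1 were near the nonspecific controls. The part of these tissues in the immediate early differences was not tested.

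Over other immediate early genes the differences lay on either side of 0. Of 37 measured genes outside the members 21 lay above 0 and 16 below, with a median of 0.02. The median was 0.10 among brighter genes, 0.06 with the mean of probe sets and, with an array left out, 0.03 without KO 1, 0.04 without KO 2 or WT 1 and 0.07 without WT 2. By limma 0 passed in either direction, and 9 had an unadjusted p under 0.05, 7 higher and 2 lower, where 7.01% of all genes did. That count depended on the array left out, and rose without KO 1 and fell without KO 2, WT 1 or WT 2. Those of smallest p were Cebpb, Rgs2, Klf6 and Klf2, with adjusted p between 0.585 and 0.693 by limma. Cebpb, a leucine zipper factor of adipocyte differentiation, had 11.10 and 11.12 in KO 1 and KO 2, against 10.58 and 10.61 in WT 1 and WT 2, a difference of 0.51 (SE 0.063). Rgs2, which shortens G protein signals, lay the other way, with 10.21 and 10.35 in knockouts against 10.64 and 10.83 in wild type (-0.46, SE 0.097). The zinc-finger factor Klf6 had a difference of 0.36 (SE 0.079), and Klf2, which flowing blood induces in endothelium, had 0.31 (SE 0.097) and 0.21 without KO 2. The differences of the 37 genes ran from -0.47 for Gadd45b to 0.83 for Gadd45g, which was wider than that of any member. Gadd45g had 8.43 and 9.38 in KO 1 and KO 2, against 7.79 and 8.35 in WT 1 and WT 2 (SE 0.357). Its highest array was KO 2, as for Fos and Dusp1. Of the 37 genes 13 had both knockout arrays above both wild-type arrays, against 18.2% of all genes, and 4 both below, against 19.4%. Zfp36 was not analysed here. Among relatives of the members, chosen after their values were seen, Fosl1 differed by 0.02, Egr3 by -0.02, Nr4a2 by -0.01 and Nr4a3 by -0.10, and Jund by 0.11.

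The other leucine zipper factors that can share AP-1 sites or partners had differences on either side of 0 too, with 7 of 17 above 0 and a median of -0.005. Fosl1, Jund, Atf3 and Maff are counted both here and among the other immediate early genes. None had an unadjusted p under 0.05 by limma, and 0 passed. Maf had -0.29 (SE 0.115), Batf3 -0.17 (SE 0.068) and Batf, which pairs with Jun proteins in lymphocytes, -0.19 (SE 0.089), while Atf4, the effector of the integrated stress response, had 0.11 (SE 0.070). Maf had -0.14 without KO 1 and -0.44 without KO 2, and Batf had -0.12 without KO 2 and -0.13 without WT 2. Atf4 had 0.07 with the mean of its probe sets and 0.06 without WT 2. Of 14 measured genes of the SRF and MAP kinase route upstream of the members 9 lay above 0, with a median of 0.02. By limma 0 passed and 1 had an unadjusted p under 0.05, a share near the 7.01% of all genes. Srf, the factor that binds the CArG box, had 7.25 and 7.25 in KO 1 and KO 2, against 7.08 and 6.99 in WT 1 and WT 2, a difference of 0.21 (SE 0.0686, limma adjusted p = 0.693). The kinase Rps6ka5, which phosphorylates CREB and histone H3 in this response, had 0.18 (SE 0.092), Mapk8, which encodes the Jun kinase JNK1, -0.18 (SE 0.123), and the SRF coactivator Mrtfa 0.06 (SE 0.063). With the mean of their probe sets Rps6ka5 had 0.04 and Mapk8 -0.03. Rps6ka5 had 0.07 without WT 1 and 0.29 without WT 2, and Mapk8 had -0.08 without KO 1, -0.28 without KO 2, -0.31 without WT 1 and -0.05 without WT 2.

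Among 17 other feedback inhibitors 10 lay above 0, with a median of 0.02. By limma 0 passed and 1 had an unadjusted p under 0.05, against 7.01% of all genes. It was the ERK phosphatase Dusp4, with 8.92 and 8.79 in KO 1 and KO 2, against 9.16 and 9.15 in WT 1 and WT 2 (-0.30, SE 0.075, limma adjusted p = 0.693). Spry4, an inhibitor of receptor kinase signals, had 0.35 (SE 0.139), Nab2, a corepressor of EGR proteins, 0.25 (SE 0.117), and the phosphatase Dusp3 0.13 (SE 0.066). With the mean of their probe sets Spry4 had 0.09 and Dusp3 0.08. Spry4 had 0.19 without WT 2, and Nab2 had 0.12 without KO 1, 0.38 without KO 2 and 0.17 with WT 2 left out. Of 15 measured genes known as AP-1 or EGR targets 9 lay above 0, with a median of 0.04. By limma 0 passed and 1, the gelatinase Mmp9, had an unadjusted p under 0.05, a share near the 7.01% of all genes. The proteinase Mmp3 had 0.36 (SE 0.146), Mmp9 0.18 (SE 0.065), Tgfb1 0.21 (SE 0.091) and the haem oxygenase Hmox1 -0.35 (SE 0.154). Without WT 2 Mmp3 had 0.18 and Tgfb1 0.11, without WT 1 Mmp3 had 0.55, and Hmox1 had -0.14 without KO 1 and -0.57 without KO 2.

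**Figure D4:**
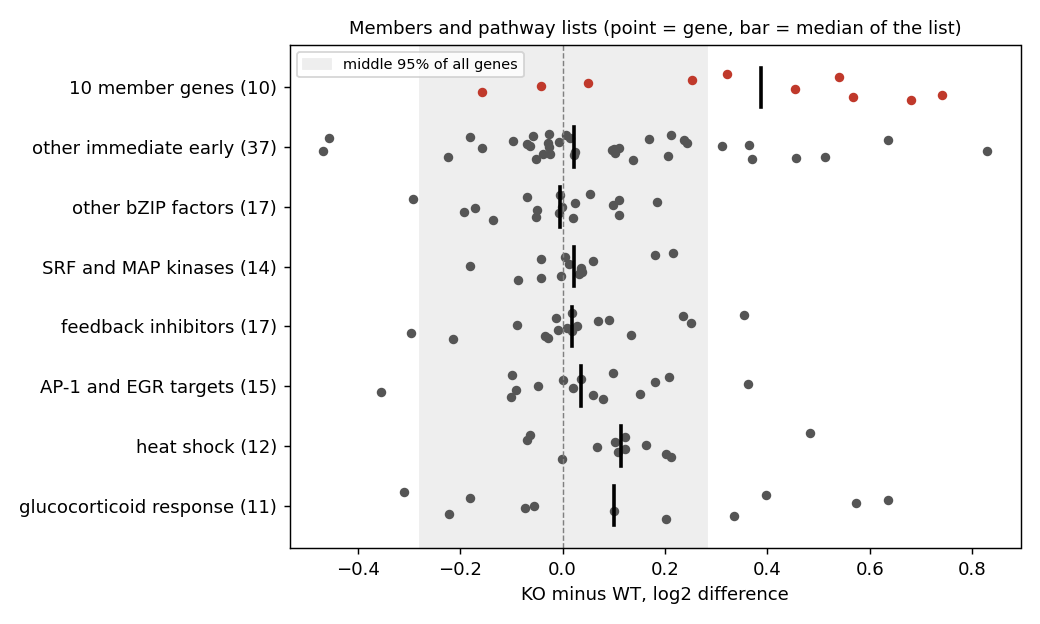
KO minus WT log2 difference (horizontal axis) of each gene (points) in the 10 members and in 7 lists around them, with the median of each list (bars) and the middle 95% of all genes (shaded, -0.28 to 0.28). The median of the members is 0.39, and those of the other lists lie between -0.005 and 0.12.

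Genes that respond to heat or handling stress and to glucocorticoids, a further pair of acute responses, were measured on the same arrays. Of 12 heat shock genes 9 lay above 0 (median 0.12), 0 passed by limma and 1 had an unadjusted p under 0.05, against 7.01% of all genes, the chaperone Hsph1, with 7.97 and 7.53 in KO 1 and KO 2, against 7.40 and 7.14 in WT 1 and WT 2. Their summed signal was highest in KO 1, with 15952 in KO 1 and 14681 in KO 2, against 14649 in WT 1 and 14282 in WT 2. Next by p were Dnaja1 (0.20, SE 0.085), Cryab (0.21, SE 0.094) and Hspa5 (0.16, SE 0.093), which are chaperones too. Without KO 1 Hsph1 had 0.27, and without WT 2 Dnaja1 had 0.11, Cryab 0.11 and Hspa5 0.08. Of 11 glucocorticoid response genes 6 lay above 0 (median 0.10), 0 passed by limma and 3 had an unadjusted p under 0.05, all higher in knockouts, as did 3.63% of all genes. Their summed signal was 13014 in KO 1 and 14076 in KO 2, against 10582 in WT 1 and 12982 in WT 2. Each gene's deviation from its own mean over the arrays gave another order. Its median over the list was -0.06 in KO 1 and 0.004 in KO 2, against -0.15 in WT 1 and 0.02 in WT 2. The 3 genes at an unadjusted p under 0.05 by limma were Tsc22d3, Per1 and Pdk4. Tsc22d3, which encodes the anti-inflammatory protein GILZ, had 0.40 (SE 0.066). The clock gene Per1 had 0.64 (SE 0.208), the kinase Pdk4 0.57 (SE 0.189) and the cell cycle inhibitor Cdkn1a 0.33 (SE 0.144). Per1 is also counted among the other immediate early genes, as is Sgk1 (-0.18). Per1 had 0.35 without KO 2, Pdk4 0.30 without WT 1, and Cdkn1a 0.13 without KO 1 and 0.54 without KO 2. Fkbp5, a sensitive glucocorticoid target chosen after its values were seen, had -0.22 (SE 0.172) with overlapping genotypes. Its values were 6.64 and 6.56 in KO 1 and KO 2, against 7.07 and 6.57 in WT 1 and WT 2. Of the 11 genes 4 had both knockout arrays above both wild-type arrays, against 18.2% of all genes, and 3 had both below, against 19.4%. The part of handling or hormone state in the immediate early differences was not tested.

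Junb lies on chromosome 8, as does Mmp15, with 88 measured genes between them, and in a congenic knockout the region around the deleted gene can come from another strain. The 10 measured genes nearest to Junb, 5 on each side, had 6 above 0 and a median of 0.01. By limma 0 passed the threshold and 2 had an unadjusted p under 0.05, against 7.01% of all genes. Of these 2, the nuclear import receptor Tnpo2 had 8.41 and 8.30 in KO 1 and KO 2, against 7.90 and 7.90 in WT 1 and WT 2 (0.46, SE 0.071, limma adjusted p = 0.651). Prdx2, a peroxiredoxin and the next measured gene to Junb, had 0.18 (SE 0.063) by its brightest probe set. A dimmer probe set of Prdx2 fell in knockouts, with a difference of -2.83 (SE 0.103), 1 of 2 probe sets past the threshold when every probe set was tested (limma adjusted p = 0.022, 0.00444% of all probe sets), so probe sets of that gene disagreed. Without KO 1, KO 2 or WT 2 no probe set passed, and neither did any gene. On the other side Hook2, a microtubule linker, had -0.30 (SE 0.121) and Get3, an ATPase of membrane protein insertion, 0.15 (SE 0.075). The remaining neighbours were Mast1 (0.03), Gm38426 (-0.17), Rtbdn (-0.03), Rnaseh2a (-0.004), Best2 (0.05) and Trir (0.003). Between Junb and Mmp15 44 of the 88 genes lay above 0, 0 passed by limma and 21 had an unadjusted p under 0.05, against 7.01% of all genes. Over the 884 measured genes of chromosome 8 other than Junb 1 passed by limma, against 0.00585% of all genes. Of the 884 genes 81 had an unadjusted p under 0.05 by limma, against 7.01% of all genes. The gene that passed was Gadd45gip1, a mitochondrial ribosome protein and the only gene past the threshold in the whole fit. It had a difference of -1.51 (SE 0.0634, limma adjusted p = 0.0451). Gadd45gip1 lies outside the 10 neighbours of Junb and outside the stretch between Junb and Mmp15. Its distance from Junb was not measured, so the counts of 0 do not show that the wider surroundings of Junb were level. Junb has 1 probe set, and whether a sequence difference under its probes plays a part was not tested. The other 9 members lie on other chromosomes.

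**Figure D5:**
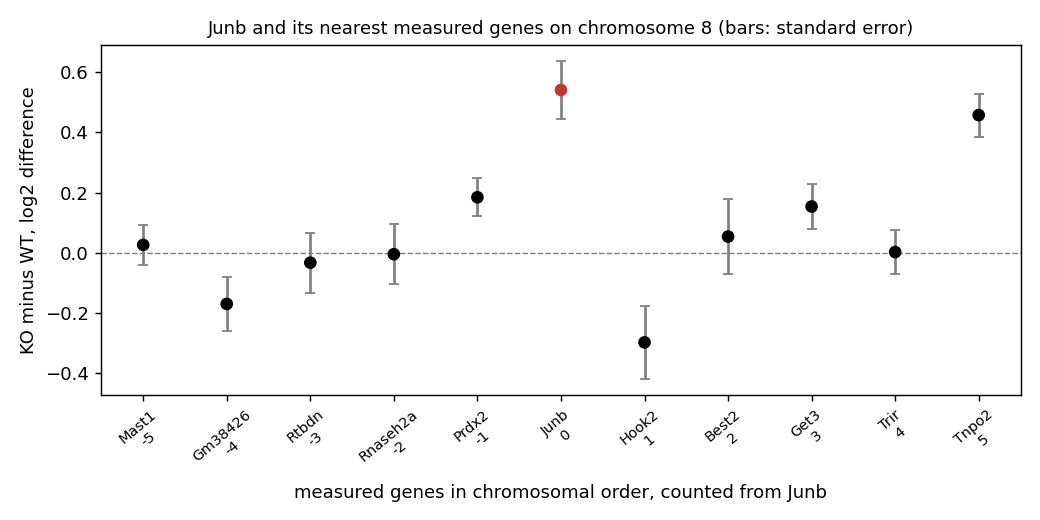
KO minus WT log2 difference (vertical axis) of Junb (red) and the 5 nearest measured genes on either side in chromosomal order (horizontal axis, counted from Junb), with standard errors from limma. Junb at 0.54 and Tnpo2 at 0.46 lie highest and Hook2 at -0.30 lowest. Prdx2 by its brightest probe set (0.18), Get3 (0.15) and Gm38426 (-0.17) lie between these, and the remaining neighbours are near 0.

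The genes outside the members whose centred values over the 4 arrays were nearest, by Euclidean distance, to the mean profile of the 10 were Palmd, Klf2, Tln2, H4c8, Tcta, Mturn, Trarg1 and Fzd4, at distances of 0.032 to 0.065. The mean profile was 0.06 in KO 1 and 0.28 in KO 2, against -0.20 in WT 1 and -0.14 in WT 2. Palmd, a paralemmin family protein, had 9.75 and 9.93 in KO 1 and KO 2, against 9.45 and 9.50 in WT 1 and WT 2. Of the members Jun was nearest to the mean profile, at 0.115, and Egr2 farthest, at 0.532, and 56 other genes lay nearer than Jun. With 4 arrays many genes follow any given profile, so this is a description of these arrays.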

How the data were processed

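RNA from flash-frozen gland was labelled with biotin and hybridized to 4 arrays, per the labels. The authors deposited log2 values; the submitters' processing notes name RMA and affy. Their versions are not given in the sources here. RMA removes background and brings arrays to 1 distribution, so shared shifts are lost and changes of dim genes are compressed. Array medians lay between 5.197 and 5.215; the number of arrays limits the precision.

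Of 45141 probe sets 104 controls were left out. In the platform annotation 28898 had 1 symbol, 551 several and 15588 were not listed, and 99.3% of symbols matched RefSeq (GRCm38.p6) by gene ID and 0 changed. The brightest probe set stood for a gene. Knockout was compared with wild type by limma 3.58.1 in R 4.3.3 (lmFit, eBayes, two-sided, Benjamini-Hochberg over all genes), without covariates or filter; all adjusted p-values come from it. With 2 arrays a side, exact permutation p-values start at 0.333. P-values measure the spread between these arrays only. The code was tested on simulated data. Alternatives were quantile normalization, median centring, brighter genes only, averaged probe sets, a variance trend, robust variances, a replicate block and leaving out each array. Summed signals are sums of 2 to the power of the log2 value. Named in the text are all members, up to 4 genes of smallest p per pathway list, the 5 nearest measured neighbours of Junb on each side and the 8 genes of nearest profile. Other genes, among them tissue markers, Tchh, Acta1, Myh4, Lep, Ms4a1, Cd79b, Gadd45b, Gadd45g, relatives of the members and Fkbp5, were named after their values were seen. Members, lists and motifs were chosen with earlier results of these data known. Same-numbered arrays did not deviate together (r = -0.48).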

Additional observations from a re-analysis of the deposited data

How the results depend on the processing

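The median log2 difference of the 10 genes, 0.39, stayed between 0.38 and 0.45 under quantile normalization, median centring, brighter genes only, mean of probe sets, an intensity trend, robust variances and the replicate block, and ran from 0.21 (without KO 2) to 0.52 (without KO 1) when an array was left out. The number of members above 0, 8, was 8 to 9 with an array left out and 7 of 7 among brighter genes, where Fosb, Junb and Egr2 were not tested. Of the other immediate early genes 0 passed by limma under every alternative. For all genes, 1 past the threshold became 0 with the mean of probe sets, 2 with robust variances, 0 with the replicate block and 0 to 1 with an array left out. For every probe set, 2 became 5 with quantile normalization, 5 with median centring, 5 with brighter probe sets only, 5 with an intensity trend, 5 with robust variances, 0 with the replicate block and 0 to 5 with an array left out. The numbers are not known to pair the arrays, so calls lost under the block do not describe a smaller difference. A crossed block (KO 1 with WT 2), chosen after seeing the data, gave 0 genes and 0 probe sets. The causes were not tested. Where 1 array remains of a genotype it is assumed to vary like the other genotype. Signal near the median of the nonspecific controls limits Fosb. The brightest of these controls lay at 6.782 to 6.955 by array. All values of Junb, Egr2 and the dimmer Fosl2 and Dusp10 probe sets were below that, which limits them too. Fos lay just below the brightest control in WT 1 (6.796 against 6.836) and WT 2 (6.931 against 6.934). In KO 1 and KO 2 Fos lay above it, so the limit holds for its wild-type values. The number of arrays limits all values.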
